A study of Sus scrofa with 6 samples.

Results

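The genes described here are 38 genes of the cell division cycle: 13 of the G1/S transition and DNA synthesis, 22 of the G2 phase and mitosis, and the 3 inhibitors of cyclin-dependent kinases (CDK) of the CIP/KIP family. They were chosen by name, as probe sets whose gene symbol in the annotation of the array is on the list, and 35 of the 38 had at least 1 probe set, among 13755 genes with a symbol on the array. CCNA2, AURKA and KIF20A had none under these symbols and were not analysed here. Each gene was represented by the 1 of its probe sets with the highest mean signal over all arrays; 14 of the 35 genes had 1 probe set and 21 had several, 70 in all.

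The study compared blood monocytes of 3 piglets aged 8 weeks, an F1 cross of Large White and Landrace, sorted by flow cytometry after freezing and thawing into CD14low-CD163high cells (called CD163high here) and CD14high-CD163low cells (CD163low). CD14 binds lipopolysaccharide of bacteria on the cell surface, while CD163 takes up complexes of haemoglobin and haptoglobin. Both populations came from each pig, on 1 porcine Affymetrix array each, which gave 6 arrays in 2 groups of 3. The animals received no treatment that the labels name, and both groups carry the same freezing, antibody staining and sorting. All values are log2 signals, and differences are CD163high minus CD163low on that scale, ± the standard error that limma gives. With 3 arrays a group the precision of every value is low. Signals of different probe sets were not ranked as amounts of transcript. In sorted cells measured in bulk, fewer dividing cells and less RNA of a gene per cell cannot be told apart.

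A cell that divides passes through G1, in which cyclin D and cyclin E with their kinases release the E2F transcription factors from the RB protein. E2F then drives genes for DNA replication (S phase), and a later programme of cyclin B, CDK1 and spindle genes drives mitosis. The CIP/KIP proteins p21 (CDKN1A), p27 (CDKN1B) and p57 (CDKN1C) bind cyclin-CDK complexes and hold cells in G1. Monocytes in blood are for the most part cells that have stopped dividing after leaving the bone marrow. In human blood, transcripts of CDKN1C are a known mark of the CD16-positive, non-classical monocytes.

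The arrays differed in background, and the part of this in the values below was not tested. The array carries 69 background control probe sets that match no known transcript, and in pigs 1, 2 and 3 their mean log2 signal was 2.82, 2.97 and 3.67 on the CD163high arrays, against 3.29, 2.60 and 3.06 on the CD163low arrays. Of the monocyte markers CD14, CD163, LYZ, ITGAM and SIRPA, 5 of 5 measured genes were above this mean on all 6 arrays. The sort antigens had differences of 2.03 (CD163) and -1.07 (CD14), the directions of the gate, and the CD14 values overlapped between the groups. With limma and Benjamini-Hochberg adjustment over all 47722 probe sets 0 were called at an adjusted p of 0.05, with or without the pig as a block. Of the 13755 genes, 450 had an unadjusted p under 0.05.

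The share of the cell cycle genes above background was near that of all genes. Of the 35 measured genes, 20 (57.1%) were above the mean of the background controls on all 6 arrays, beside 59.7% of all genes; these were 8 of 13 genes of DNA synthesis, 9 of 19 of mitosis and 3 of 3 CDK inhibitors. The 15 others had a signal at or under that mean on at least 1 array, 10 of them on 3 or more, so the sizes of their differences are uncertain. On CD163high of pig 3, which had the highest background, 20 of the 35 genes were above the mean, beside 62.2% of all genes. On CD163low of pig 2, which had the lowest, it was 35, beside 81.5% of all genes. Above the brightest background control of the same array were between 0 and 7 of the 35.

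In limma, 0 of the 35 genes passed the adjusted threshold of 0.05 between the populations, beside 0% of all genes. The unadjusted p was under 0.05 for 3 (8.57%), beside 3.27% of all genes. These were MKI67 and TYMS, lower in CD163high (1.43% of all genes were lower at this p), and CDKN1C, higher in CD163high (1.84% of all genes). The same 3, and MCM2, were the genes whose 3 CD163high and 3 CD163low values did not overlap: 3 of 35 lower and 1 of 35 higher, beside 3.16% and 3.02% of all genes. Groups that do not overlap fix the direction in each pig, which therefore adds nothing. With the pig as a block the count at an unadjusted p under 0.05 was also 3, 2 lower and 1 higher, beside 2.45% and 2.67% of all genes (limma). It was 0 without pig 1, 1 without the CD163high array of pig 1, the CD163low array of pig 1 or the CD163low array of pig 2, and 0 without the 2 arrays of highest background. With array weights it was 5, 1 lower and 4 higher. These weights were 5.79 for CD163low of pig 3 and 1.88 for CD163high of pig 1, against 0.38 to 0.93 for the other arrays. That fit therefore leans on arrays of different pigs. For the fits with weights or with a pig or arrays left out, the share of all genes was not computed.

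**Figure D1:**
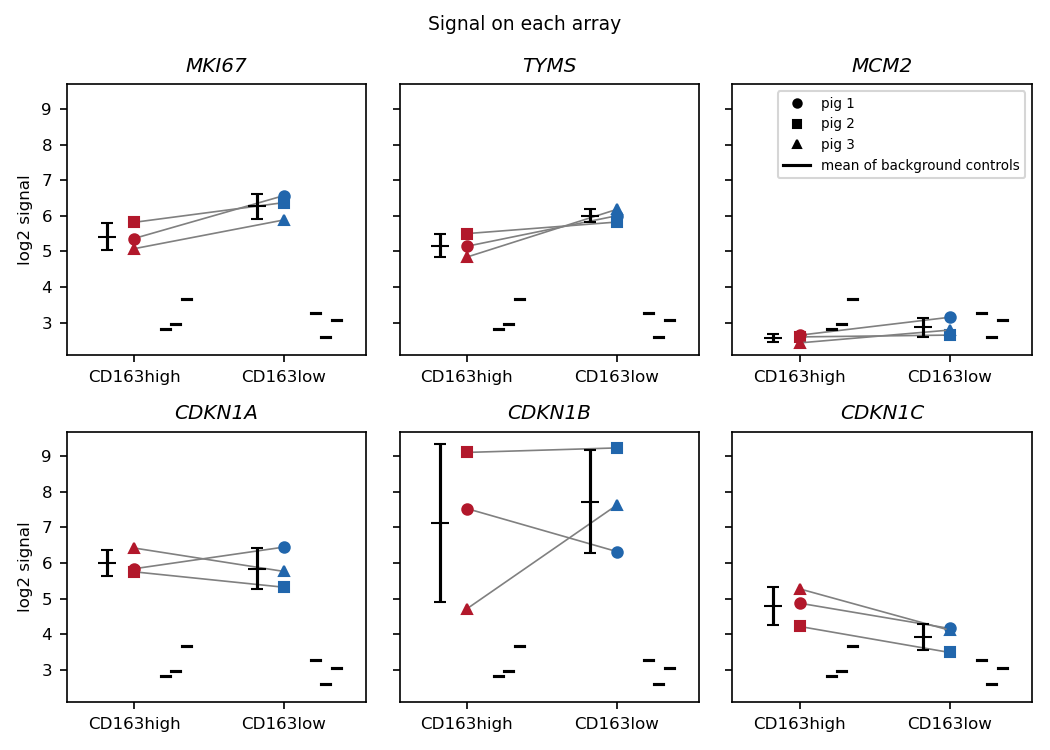
Log2 signal (vertical axis) of 6 cell cycle genes on each array, CD163high in red and CD163low in blue, with a line joining the arrays of a pig (circle pig 1, square pig 2, triangle pig 3). Bars at the left of each group give mean and SD over its 3 arrays, and short black lines at the right give the mean of the background controls of pigs 1, 2 and 3. MKI67 and TYMS lie lower and CDKN1C higher on every CD163high array, MCM2 lies near the controls, and CDKN1A and CDKN1B overlap between the groups.

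**Figure D2:**
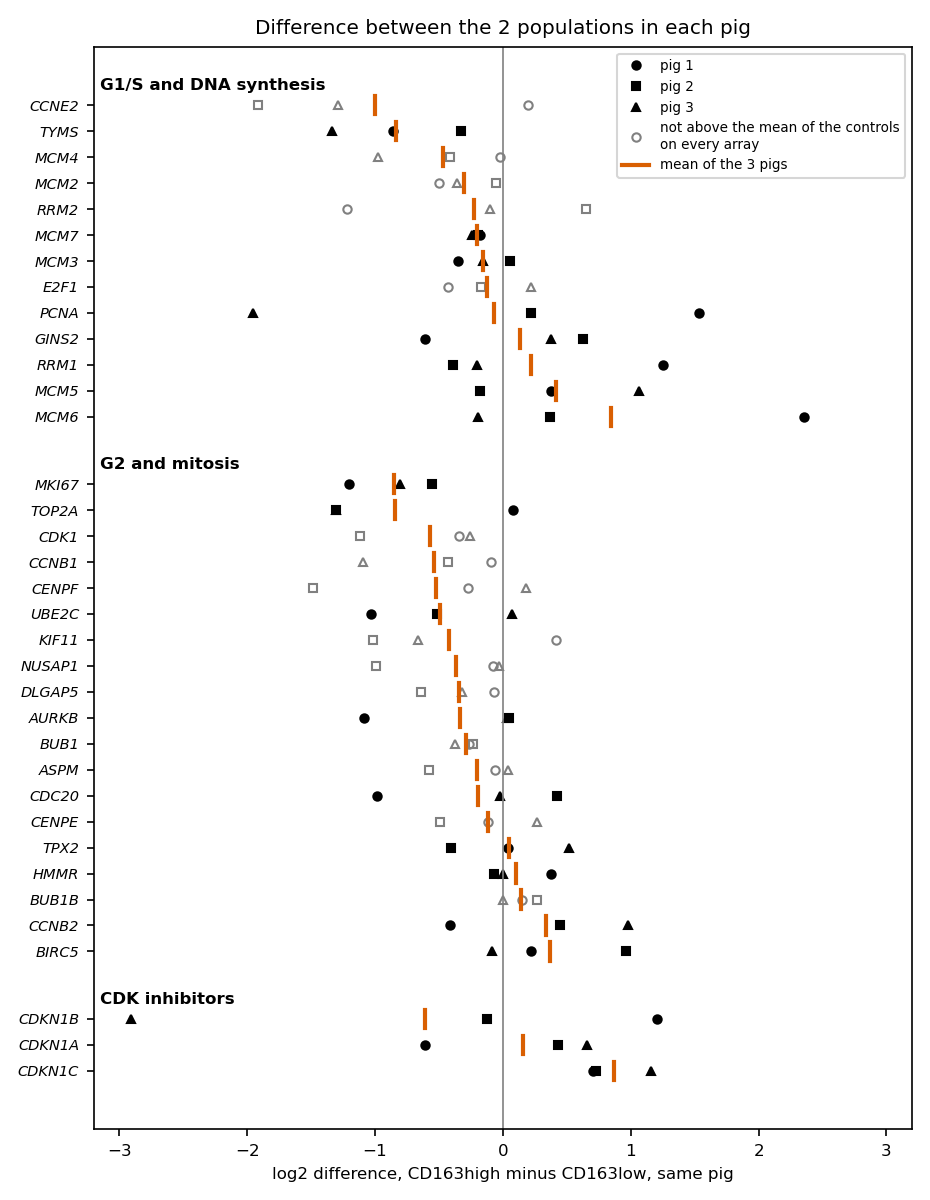
Log2 difference, CD163high minus CD163low (horizontal axis), within pig 1 (circle), pig 2 (square) and pig 3 (triangle) for the 35 measured genes (vertical axis), with the mean of the 3 pigs as an orange bar. Filled symbols mark the 20 genes above the mean of the background controls on all 6 arrays and open grey symbols the 15 others. The pigs lie on both sides of 0 for 23 of the 35 genes.

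Among the 13 genes of the G1/S transition and DNA synthesis, 9 had a negative and 4 a positive difference, with a median of -0.15, beside -0.013 over all genes. The medians within pigs 1, 2 and 3 were -0.18, -0.17 and -0.20, beside -0.12, 0.024 and 0.013 over all genes. For the 8 genes above the background mean on all arrays the median was 0.031, with 4 negative and 4 positive differences. Of the 13, 4 were lower in CD163high in all pigs (TYMS, MCM2, MCM4 and MCM7), 0 were higher in all pigs and 9 had differing signs; over the 35 genes 10 (28.6%) were lower and 2 higher in all pigs, beside 12.5% and 10.5% of all genes. Of these 10, 3 were above the background mean on all arrays (TYMS, MCM7 and MKI67).

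TYMS encodes thymidylate synthase, which makes the thymidine nucleotide needed for DNA. Its brightest probe set (SNOWBALL_021558_s_st) had 5.15, 5.50 and 4.84 in CD163high and 6.00, 5.83 and 6.18 in CD163low of pigs 1, 2 and 3, the order used for all values here. The CD163low values lay close together, and all of them were above the highest CD163high value. The means of 5.16 ± 0.33 (SD, n = 3) and 6.00 ± 0.18 gave a difference of -0.84 ± 0.23, 1.79-fold lower in CD163high (limma unadjusted p = 0.0091, and 0.0259 with the pig as a block). A second TYMS probe set, also above the background mean on all arrays, had 4.81, 5.49 and 3.92 against 4.90, 6.04 and 5.08. Its difference of -0.60 ± 0.48 had the same sign, but its groups overlapped. The differences of the brightest probe set in pigs 1, 2 and 3 were -0.86, -0.32 and -1.34, smallest in pig 2.

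The MCM2 to MCM7 proteins form the ring-shaped helicase that unwinds DNA at replication forks, and the differences of their genes had both signs. MCM6 had 7.35, 7.13 and 4.93 in CD163high and 5.00, 6.76 and 5.12 in CD163low, and its difference of 0.84 ± 0.78 was largest in pig 1 (2.36, 0.37 and -0.19 in pigs 1, 2 and 3). The groups overlapped. MCM7 had 4.92, 5.33 and 4.86 against 5.09, 5.52 and 5.10, a small difference of -0.20 ± 0.22 that was nearly the same in each pig, while its 4 probe sets above the background mean on all arrays ran from -0.35 to 0.46. MCM5 had 3.95, 3.35 and 4.15 against 3.58, 3.53 and 3.09 and a difference of 0.42 ± 0.27, and its dimmer probe sets had negative differences. The groups overlapped for MCM3, MCM4, MCM5 and MCM7. MCM4 had 3.43, 4.23 and 3.04 against 3.45, 4.64 and 4.02 (difference -0.47 ± 0.42), and CD163high of pig 3 was under the background mean. MCM3 had a difference of -0.15 ± 0.17 with a narrow spread, from 3.79 to 4.18. MCM2 had groups that only just did not overlap, with 2.65, 2.60 and 2.44 against 3.15, 2.65 and 2.79, but was above the background mean on 1 array only, CD163low of pig 2. Its difference of -0.30 ± 0.19 is therefore of uncertain size.

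The enzymes and the clamp of DNA synthesis had wide spreads. RRM1 encodes the large subunit of ribonucleotide reductase, which makes deoxynucleotides, and had 6.31, 7.35 and 5.04 in CD163high and 5.06, 7.74 and 5.24 in CD163low. Both values of pig 2 were above all others, and the difference was 0.22 ± 0.89. RRM2, the small subunit that is made in S phase, had 3.71, 4.94 and 3.14 against 4.93, 4.29 and 3.24 and differences of -1.22, 0.65 and -0.10 in the 3 pigs. PCNA, the sliding clamp of DNA polymerase, had 7.16, 7.13 and 4.10 against 5.63, 6.91 and 6.06. Here CD163high of pig 3 stood far under the other 5 arrays, and the differences in pigs 1, 2 and 3 were 1.53, 0.22 and -1.96. The second PCNA probe set was also low on that array, at 3.12, and had 3.52 and 3.93 in CD163low of pigs 1 and 3, and its difference was 0.54 ± 1.16.

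CCNE2, a cyclin of the G1/S transition, had the most negative difference of all 35 genes (-1.0 ± 0.84), with 2.69, 3.82 and 2.47 in CD163high and 2.49, 5.74 and 3.76 in CD163low. CD163low of pig 2 was far above the others, the groups overlapped, and 3 arrays were under the background mean. E2F1, the transcription factor of S-phase genes, stayed between 2.84 and 3.27 and was above the background mean on 2 arrays. GINS2, a subunit of the replicative helicase complex, had a difference of 0.13 ± 0.32 with values between 3.41 and 4.54.

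Among the 19 measured genes of G2 and mitosis, 14 had a negative and 5 a positive difference, and the median was -0.33. The medians within pigs 1, 2 and 3 were -0.095, -0.49 and -0.025, beside -0.12, 0.024 and 0.013 over all genes. Pig 2 had the most negative value, and in pig 1 the median was not under that of all genes. Without the CD163low array of pig 2 the median was -0.0071, and with array weights in limma it turned to 0.074, with 8 genes negative and 11 positive. The weighted fit gave 5.79 to CD163low of pig 3, against 0.38 to 1.88 for the other arrays. For the 9 genes above the background mean on all arrays the median without weights was -0.20, with 5 negative and 4 positive differences. Of the 19, 6 were lower in CD163high in all pigs (MKI67, CDK1, CCNB1, BUB1, NUSAP1 and DLGAP5), 1 was higher (BUB1B) and 12 had differing signs. Apart from MKI67, each gene named here was at or under the background mean on at least 1 array.

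MKI67 encodes Ki-67, a protein of dividing nuclei that coats mitotic chromosomes and is used in pathology to count proliferating cells. Its brightest probe set (SNOWBALL_032445_st) had a log2 signal of 5.36, 5.82 and 5.08 in CD163high and 6.57, 6.37 and 5.89 in CD163low of pigs 1, 2 and 3. All 6 values were above the mean of the background controls of their array, and the highest CD163high value lay just under the lowest CD163low value. The means were 5.42 ± 0.37 (SD, n = 3) and 6.28 ± 0.35, a difference of -0.85 ± 0.28 or 1.81-fold lower in CD163high (limma unadjusted p = 0.0205, and 0.0119 with the pig as a block). The second, dimmer probe set of MKI67 had the opposite sign, with 3.53, 3.03 and 3.49 against 3.32, 2.99 and 3.34 and a difference of 0.14 ± 0.22. It was under the background mean on CD163high of pig 3. With both probe sets averaged the difference was -0.36 (limma unadjusted p = 0.0725).

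TOP2A encodes topoisomerase II alpha, which untangles sister chromosomes, and had 4.97, 5.60 and 3.73 in CD163high and 4.89, 6.91 and 5.03 in CD163low. CD163low of pig 2 was the highest and CD163high of pig 3 the lowest array, and the groups overlapped. Its difference of -0.84 ± 0.70 was nearly that of MKI67, but with a larger standard error (limma unadjusted p = 0.269). The differences were 0.079, -1.31 and -1.30 in pigs 1, 2 and 3, and the second probe set had -0.40 ± 0.84.

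CDK1, the mitotic kinase, had 3.01, 2.77 and 2.35 against 3.35, 3.89 and 2.61 (difference -0.57 ± 0.36), with 3 arrays under the background mean. A second CDK1 probe set had 1.83, 3.44 and 1.82 against 2.79, 4.32 and 2.71, a difference of -0.91 ± 0.62 that was nearly the same in each pig (limma unadjusted p = 0.19, and 0.00411 with the pig as a block), but 4 of its 6 values were under the background mean. Another probe set, with 0.46 ± 0.20 and groups that did not overlap, was under it on all arrays, as was the last (-0.015 ± 0.19). CCNB1, which activates CDK1, had 3.63, 4.77 and 3.07 against 3.72, 5.19 and 4.16 (difference -0.54 ± 0.55), and both values of pig 2 were above all others. It was under the background mean on CD163high of pig 3, whereas CCNB2 was above the mean on all arrays. CCNB2, a second B-type cyclin, had the opposite sign, with 4.12, 4.07 and 4.99 against 4.53, 3.62 and 4.01 and a difference of 0.34 ± 0.35; its value was highest on the array with the highest background and lowest on the array with the lowest.

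Of the genes of the chromosomal passenger complex, which corrects the attachment of chromosomes, AURKB had 4.22, 5.04 and 4.52 in CD163high and 5.31, 4.99 and 4.49 in CD163low. The differences in the 3 pigs were -1.08, 0.05 and 0.032, with a mean of -0.33 ± 0.31. BIRC5 (survivin), its partner, had 4.63, 4.39 and 4.22 against 4.41, 3.42 and 4.30 and a positive difference of 0.37 ± 0.30, with 0.22, 0.96 and -0.085 in the 3 pigs. The groups overlapped for both.

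UBE2C and CDC20 work with the anaphase-promoting complex, the ubiquitin ligase that ends mitosis. UBE2C had 4.16, 4.56 and 4.37 against 5.19, 5.08 and 4.30, a difference of -0.49 ± 0.28, and was higher in CD163high in pig 3 only. CDC20 had -0.20 ± 0.28, with -0.99, 0.42 and -0.025 in the 3 pigs.

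The remaining genes of mitosis encode spindle and kinetochore proteins, and their differences ran from -0.53 (CENPF, a kinetochore protein gene) to 0.14 (BUB1B). The motor protein genes CENPE and KIF11 had -0.11 ± 0.26 and -0.42 ± 0.57, the checkpoint kinase genes BUB1 and BUB1B -0.29 ± 0.26 and 0.14 ± 0.25. The spindle assembly gene TPX2 had 4.05, 5.02 and 3.90 against 4.01, 5.43 and 3.38 and a difference of 0.049 ± 0.58, and both values of pig 2 were the highest. NUSAP1, DLGAP5 and ASPM, whose products bind spindle microtubules, had -0.37 ± 0.35, -0.34 ± 0.48 and -0.20 ± 0.21. HMMR, another spindle protein gene, had 0.10 ± 0.19 and stayed between 3.83 and 4.23. None of these genes had groups that did not overlap.

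CDKN1C encodes p57, and was the 1 of the 3 CIP/KIP inhibitors whose groups did not overlap. Its brightest probe set (SNOWBALL_021865_st) had 4.87, 4.22 and 5.28 in CD163high and 4.17, 3.49 and 4.12 in CD163low. In each group pig 2 had the lowest value, and the lowest CD163high value was just above the highest CD163low value. The means were 4.79 ± 0.53 (SD, n = 3) and 3.92 ± 0.38, with a difference of 0.87 ± 0.33 or 1.82-fold higher in CD163high (limma unadjusted p = 0.0394). The differences in the 3 pigs were 0.71, 0.73 and 1.16, and with the pig as a block the limma unadjusted p was 0.00853. All 6 values were above the background mean, although that of CD163high of pig 3, the highest, came from the array with the highest background. The other probe set of CDKN1C was under the background mean on all arrays.

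The other 2 inhibitors had no shared direction. CDKN1A encodes p21, a target of p53, and it had 5.84, 5.76 and 6.42 on the CD163high arrays against 6.45, 5.32 and 5.77 on the CD163low arrays. CD163high was lower in pig 1 and higher in the other 2 pigs (difference 0.16 ± 0.34), and the groups overlapped. A second, dimmer probe set of CDKN1A had a difference of 0.25 ± 0.20.

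CDKN1B encodes p27, which is known to be high in resting blood cells. It had the widest spread over arrays of all 35 genes, 4.52 from lowest to highest, with 7.53, 9.11 and 4.72 in CD163high and 6.33, 9.23 and 7.63 in CD163low. Both arrays of pig 2 were above 9, whereas CD163high of pig 3 was under 5, and the groups overlapped (difference -0.61 ± 1.23). The differences within pigs were 1.21, -0.13 and -2.91, so that the sign turned between pigs 1 and 3. Its other probe sets, both above the background mean on all arrays, had differences of -0.49 ± 0.36 and 0.011 ± 0.86. The mean of pig 2 was also the highest of the 3 pigs on each of them.

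Probe sets of the same gene often went against each other. Of the 21 genes with several probe sets, 12 had probe sets of both signs, which were AURKB, BIRC5, BUB1, CDK1, CDKN1B, MCM5, MCM7, MKI67, PCNA, RRM1, RRM2 and TPX2. Of the 70 probe sets 27 were above the background mean on all arrays. Counting only those, 3 genes had both signs (AURKB, CDKN1B and MCM7).

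Many of the genes had their extreme values on the same arrays. On CD163low of pig 2, the array with the lowest background, 16 of the 35 genes had their highest value, beside 13.3% of all genes. On CD163high of pig 3, the array with the highest background, 18 of the 35 had their lowest value, beside 16.9% of all genes. For 11 of the 35 both arrays of pig 2 were above the other 4, beside 12.3% of all genes, and these were CCNE2, RRM1, MCM4, MCM7, TOP2A, CCNB1, KIF11, TPX2, DLGAP5, CENPE and CDKN1B. Over the other cell cycle genes listed below it was 31 of 103. For 7 of the 35 the 2 arrays with the highest background, CD163high of pig 3 and CD163low of pig 1, were the lowest, beside 15.5% of all genes. These counts were made after the values had been seen, and the part of background in the differences was not tested.

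**Figure D3:**
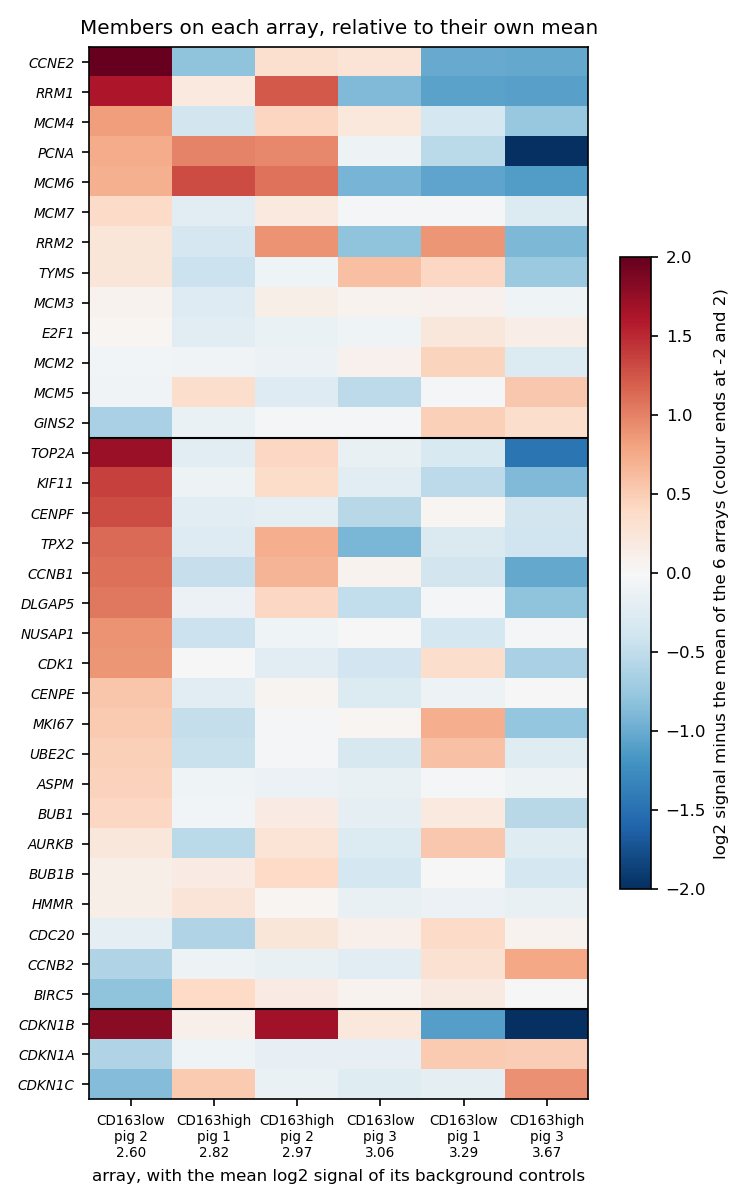
Log2 signal of each of the 35 genes (rows) on each array (columns), as the difference from the mean of the gene over the 6 arrays, from blue (lower) through white to red (higher). Arrays are ordered by the mean log2 signal of their background controls, printed under each from 2.60 to 3.67, and black lines part DNA synthesis (top), mitosis and CDK inhibitors (bottom). The left column, CD163low of pig 2, is the reddest for 16 genes, and the right column, CD163high of pig 3, the bluest for 18.

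The spread between pigs is given here beside the difference within them. The range of the 3 pig means had a median of 0.65 over the 35 genes, and the mean absolute difference between the arrays of a pig had a median of 0.54. The range was the larger of these for 25 of the 35 (71.4%), beside 71.0% of all genes. MKI67, TYMS and CDKN1C were among those where it was not: their pig means spanned 0.61, 0.15 and 0.84, and their mean absolute differences within pigs were 0.85, 0.84 and 0.87. They are set apart here because their groups did not overlap. That already favours a difference that is large beside the spread between pigs, so this adds no further support.

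Markers of other blood cells also varied between these arrays. The sums of 5 monocyte markers (of 8 listed, 4 of 5 lower in CD163high) were 930.7 to 2964.7 in CD163high and 1497.7 to 2489.0 in CD163low. The summed linear signal of 4 measured B cell markers (of 6 listed) was 118.3 to 587.6 in CD163high and 212.5 to 1056.7 in CD163low, and 4 of 4 were lower in CD163high. All 5 measured T cell markers (of 8) and all 7 NK cell markers (of 7) were lower as well, with sums of 443.9 to 2065.6 against 418.0 to 2433.1 and of 508.7 to 1306.9 against 709.8 to 1459.9. The 4 plasmablast markers (of 6) were all lower, with sums of 112.6 to 189.9 against 167.2 to 227.2. Lower refers here to the sign of the mean difference, which was negative for 7195 of the 13755 genes. Lower in all 3 pigs were 3 of 4 B cell, 1 of 5 T cell, 2 of 7 NK cell and 2 of 4 plasmablast markers, beside 12.5% of all genes. Above the background mean on all arrays were 4 of 4 B cell, 3 of 5 T cell, 4 of 7 NK cell and 3 of 4 plasmablast markers. The ranges of these 4 lists overlapped between the populations, but within each of the 3 pigs the sums of the B cell, NK cell and plasmablast markers were lower in CD163high. The T cell sum was higher in CD163high of pig 1 and lower in that of the other 2 pigs. MS4A1, which encodes the B cell antigen CD20, had 5.75, 8.45 and 4.77 against 6.87, 9.30 and 8.00 (limma unadjusted p = 0.15, and 0.0256 with the pig as a block). Of the blood progenitor markers 3 of 4 (of 6 listed) were lower. Their sums of 95.2 to 605.4 against 55.1 to 91.4 did not overlap. They were led by KIT, a receptor of progenitors and mast cells, at 9.18, 7.69 and 5.91 against 4.58, 6.18 and 5.14. The KIT values themselves overlapped between the groups. GATA2, the other marker above the background mean on all arrays, had a difference of -0.014 ± 0.37. CD34 and MPO were under the background mean on at least 4 arrays. Dendritic cell markers (3 of 5 lower, 200.8 to 334.0 against 176.3 to 239.7) and platelet markers (3 of 4 lower, 90.9 to 127.9 against 95.6 to 145.3) overlapped between the groups.

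For 3 of the 4 measured red cell markers (of 5 listed) both arrays of pig 2 were the highest. The sums were 2120.5 and 1792.5 on those arrays, most of it from HBB, and 35.8 to 49.5 on the other 4. HBB, a chain of haemoglobin, had 3.54, 10.78 and 4.64 in CD163high and 3.42, 10.50 and 4.21 in CD163low, and ALAS2, an enzyme of haem synthesis in red cell precursors, had 3.19, 8.22 and 2.81 and 3.13, 8.11 and 3.51. The exception was SLC4A1, the anion exchanger of the red cell membrane, with 2.83, 3.10 and 3.52 against 3.53, 3.33 and 3.24. In all 5 T cell markers and 3 of 4 B cell markers the arrays of pig 2 were the highest too, as in the 11 cell cycle genes named above. No marker has a true 0 on this array. The part of other cells in the values of the cell cycle genes was not tested. Without the arrays of pig 2, 3 of the 35 genes had an unadjusted p under 0.05 in limma (2 lower and 1 higher), and the medians were -0.21 for DNA synthesis and -0.12 for mitosis. The share of all genes at this p was not computed for that fit.

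Values of other genes of the cell cycle are given from a list of 117, which was drawn up by function but with earlier results of these data known. Of these, 103 had a probe set, 54 were above the background mean on all arrays, and the median difference was -0.088. Only the brightest probe set of each is given, also for genes with several, such as PLK1, CDK6, LIN54, LIN9 and GADD45G. In limma 0 passed, 3 of 103 (beside 3.27% of all genes) had an unadjusted p under 0.05, and all 3 (PLK1, CHAF1B and GADD45G) were lower in CD163high (2.91%, beside 1.43%). With the pig as a block 2 were lower and 3 higher, beside 2.45% and 2.67% of all genes (limma): PLK1 and LIN9 lower, and CKS1B, RPA2 and LIN54 higher. Groups did not overlap for 6 of the 103 with CD163high lower and 1 with CD163high higher, beside 3.16% and 3.02% of all genes. CD163low of pig 2 was the highest array for 40 of the 103 (38.8%, beside 13.3% of all genes).

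**Figure D4:**
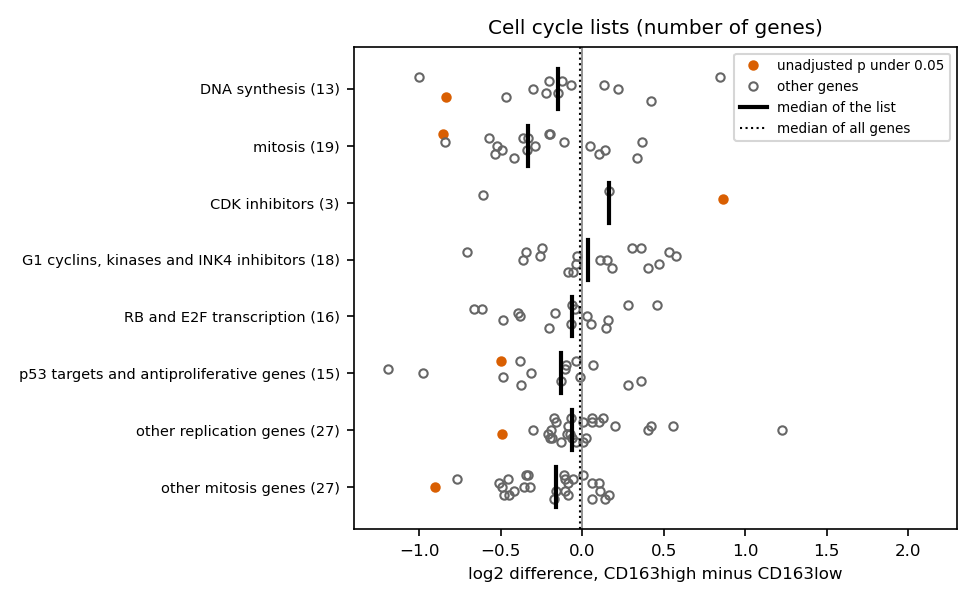
Log2 difference, CD163high minus CD163low (horizontal axis), of each measured gene in 8 cell cycle lists (vertical axis, with the number of genes). Filled orange points had an unadjusted p under 0.05 in limma, black bars are the medians of the lists, and the dotted line is the median of all genes (-0.013). The medians run from -0.33 for mitosis to 0.16 for the CDK inhibitors.

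PLK1 encodes the polo-like kinase that drives several steps of mitosis. It had 4.26, 4.41 and 4.14 in CD163high and 5.64, 4.81 and 5.08 in CD163low, all above the background mean. Every CD163high value was under every CD163low value, with the smallest gap in pig 2, and the difference was -0.90 ± 0.25 or 1.87-fold lower (limma unadjusted p = 0.0107, and 0.019 with the pig as a block). The other 26 measured genes of the list of further mitosis genes had a larger p, and the median of the 27 was -0.16. TACC3, a spindle protein gene, had -0.49 ± 0.23, CDCA8 (borealin, of the chromosomal passenger complex) -0.51 ± 0.27 and CKAP2 -0.48 ± 0.39. Only 4 of the 27 were above the background mean on all arrays.

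Among 27 further replication genes the median was -0.065. CHAF1B, a subunit of the factor that places histones on new DNA, had 2.93, 2.97 and 2.92 against 3.70, 3.38 and 3.23, without overlap (difference -0.49 ± 0.18, limma unadjusted p = 0.0348, and 0.0562 with the pig as a block), but lay under the background mean on CD163high of pig 3. The subunits RPA3 and RPA2 of the protein that coats single-stranded DNA had positive differences of 1.23 ± 0.60 and 0.56 ± 0.33, that of RPA3 mainly from pig 1 (2.62, 0.54 and 0.51 in the 3 pigs). For RPA2 the limma unadjusted p was 0.138, and 0.0334 with the pig as a block. LIG1, the ligase of replication, had -0.30 ± 0.19.

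The 18 measured G1 cyclins, kinases and INK4 inhibitors had a median of 0.038, with 12 above the background mean on all arrays. CDK6, a partner of the D-type cyclins, had 4.67, 5.03 and 4.90 against 5.05, 5.20 and 5.45, without overlap (difference -0.37 ± 0.19). CKS1B, a small subunit of CDK complexes, had 0.53 ± 0.27 (limma unadjusted p = 0.0932, and 0.0455 with the pig as a block), CDK2 -0.71 ± 0.45 and CDK7 0.47 ± 0.41. The 16 genes of RB and E2F transcription had a median of -0.065. LIN54 and LIN9 encode subunits of the MuvB complex, which represses or activates cell cycle genes with different partners, and had opposite signs. LIN54 had 5.82, 5.69 and 5.43 against 5.38, 5.17 and 5.01, without overlap (difference 0.46 ± 0.19, limma unadjusted p = 0.0511, and 0.0477 with the pig as a block). LIN9 had -0.66 ± 0.33 (limma unadjusted p = 0.092, and 0.0198 with the block). MYC had -0.49 ± 0.25 and E2F3 -0.61 ± 0.34.

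The 15 measured p53 targets and antiproliferative genes had a median of -0.13, and 14 were above the background mean on all arrays. GADD45G, of a family of stress-induced growth arrest genes, had 3.69, 3.80 and 3.84 against 4.53, 3.95 and 4.34, without overlap (difference -0.50 ± 0.20, limma unadjusted p = 0.0465, and 0.0718 with the pig as a block). PLK3, a stress-responsive kinase gene, had -0.98 ± 0.58, with -1.68, 0.053 and -1.31 in pigs 1, 2 and 3. The transcription factor genes FOXO3 and FOXO1, known to drive CDKN1B, had -0.49 ± 0.26 and -0.32 ± 0.24.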

How the data were processed

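Sorted porcine monocytes from 6 samples were hybridised to 1 array each. The table gives the authors' deposited probe-set intensity values. The submitters' processing notes name RMA, a method of background correction, quantile normalization and probe summary, and limma. The genome build was not given in any source used here. The first 186 of 47845 rows are log2 values as deposited. The other 47659 are antilogs (the log2 of each is a whole multiple of 0.0001 within 1e-06), and log2 was taken of them. RMA compresses differences of dim probe sets. Leaving out 123 array controls (69 of them for background) gave 47722 probe sets, of which 26426 carry 1 gene symbol, 0 several and 21296 none.

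The test was limma 3.58.1 in R 4.3.3 (lmFit and eBayes, CD163high minus CD163low, two-sided, without a block), adjusted by Benjamini-Hochberg over the 47722 probe sets and a threshold of 0.05. The members and gene lists were chosen with earlier results of these data known, so lists are described by counts and medians. Named by rule were the inhibitors, members with an unadjusted p under 0.05 or without overlap, the 4 brightest members and the 4 of largest difference in the DNA synthesis and mitosis groups, members whose probe sets disagree in sign, and up to 4 genes of smallest p in each further list. The remaining members, and KIT, GATA2, CD34, MPO, MS4A1, HBB, ALAS2 and SLC4A1, were named after their values had been seen. By the labels, arrays with the same number come from 1 animal, so the numbers pair the samples. Deviations from the group means correlated at -0.20, 0.67 and 0.26 within pigs 1, 2 and 3. For arrays of different pigs the correlations ran from -0.69 to 0.60, the highest for the 2 arrays of highest background. In pigs 1 and 3 the CD163high array correlated more with a CD163low array of another pig (0.24 and 0.60) than with its own. The pairing therefore rests on the labels. Without a block both arrays of a pig count as independent. The fit was tested on simulated data with independent noise on each array and no effect of pig or background, so that test does not cover these effects. Alternatives were a fixed or random block for the pig, other variance models, filters, normalizations and floors, the mean of all probe sets of a gene, and each pig or array left out. A covariate for the background, and leaving out both high-background arrays, were chosen after seeing the data.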

Additional observations from a re-analysis of the deposited data

How the results depend on the processing

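The count of members with an unadjusted p under 0.05 in limma (3) was 3 with the pig as a fixed or random replicate block, 2 lower and 1 higher, so the block changed no call of a member, 1 with trend and robust variance, 5 with array weights (1 lower, 4 higher), 0 with the mean of all probe sets, 0 without the 2 arrays of highest background (chosen after seeing the data) and 0 to 4 with a pig or array left out. The adjusted count stayed at 0 in all of these. Shares of all genes at the unadjusted p were computed only without a block and with the pig as a fixed block. The median for DNA synthesis (-0.15) was -0.095 with array weights, -0.19 after quantile normalization, -0.11 after median centring, -0.071 with the mean of probe sets, -0.097 without the 2 arrays, -0.14 with the background as covariate (also added later) and -0.34 to -0.11 with a pig or array left out. The median for mitosis (-0.33) was 0.074 with array weights and -0.46 to -0.0071 with a pig or array left out, the last without CD163low of pig 2; that for CDK inhibitors (0.16) was 0.025 to 0.59. The count above background on all arrays (20) was 0 with the floor at the 90th percentile or at the highest of the controls. Both floors are stricter than the mean. The median of the controls was under their mean on each array (1.98 against 2.82 on CD163high of pig 1), so a floor at the median cannot lower the count. Without the 2 arrays of highest background the differences were -0.54 for MKI67, -0.68 for TYMS, 0.74 for CDKN1C and -0.61 for PLK1. Of 42 named genes 31 kept their sign in all alternatives. Many were named for a small p or for groups that did not overlap in these same data. Without overlap, leaving out a pig or an array cannot turn the sign. The share of all genes that kept their sign was not computed. Signs turned with array weights for CDKN1B (0.031), BUB1 (0.052), CDK1 (0.10), PCNA (0.71) and RRM2 (0.55), with the mean of probe sets for MCM5 (-0.012) and PCNA (0.38), without the 2 arrays for PCNA (0.66) and RRM2 (0.56), and with the covariate for CDKN1A (-0.017), CDKN1B (0.096) and PCNA (0.45). Leaving out a pig or array gave ranges through 0 for CDKN1A (-0.10 to 0.55), CDKN1B (-1.60 to 0.59), AURKB (-0.56 to 0.041), PCNA (-0.87 to 0.95), RRM1 (-0.34 to 1.09), RRM2 (-0.73 to 0.27), TPX2 (-0.40 to 0.63) and CDK7 (-0.057 to 0.80). The cause of these changes was not tested.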
